A study of Mus musculus with 10 samples.

Results

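The genes of the tumor necrosis factor (TNF) superfamily were examined in the lungs of mice with increased pulmonary flow (IPF). The members were all protein-coding genes of the deposited table whose symbol begins with Tnf, which gave 41 of 54532 genes, namely 13 ligands (Tnf, Tnfsf and the readthrough gene Tnfsfm13), 20 receptors (Tnfrsf) and 8 proteins named as induced by TNF (Tnfaip). In the IPF group (n = 5), wild-type C57BL/6J mice had the abdominal aorta punctured through into the inferior vena cava at P7, an aortocaval fistula that sends more blood through the lungs. Sham mice (n = 5), of the same strain and genotype, had that operation with the puncture left out. In both groups whole-lung mRNA was sequenced at P30, a single time point, and each value is the FPKM of a gene, that is, fragments scaled by gene length and by the size of the library. Levels of different genes can therefore be set side by side.

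TNF superfamily ligands are trimeric proteins, made at the cell surface and often shed by proteases, that cluster receptors of the Tnfrsf family. Receptors with a death domain can start caspase activation, while most others recruit TRAF adaptors and activate NF-κB, either through the canonical subunits or through the slower route of Map3k14 and Relb. In the lung these genes are known for their part in leukocyte recruitment, endothelial activation, survival of B cells and turnover of epithelial cells. Tnfaip genes carry a historical name, and several of them were named for sequence similarity rather than for induction by TNF.

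The 10 libraries held 15483046 to 19026843 reads on genes. Sham replicate 1 stood apart, with a mean Spearman correlation to the other samples of 0.912, against 0.929 to 0.932 for the other 9 samples taken 1 at a time. Xist was at 26.8 to 43.2 FPKM in the IPF samples and at 0.0301 to 0.0767 FPKM in the sham samples, and 4 Y-linked genes summed to 0 in every IPF sample and to 24.6 to 37.9 FPKM in the sham samples, so sex and operation cannot be told apart in these lungs. All 7 circadian clock genes on a fixed list passed the test (2 higher and 5 lower in IPF, summed 34.0 to 60.1 against 123 to 161 FPKM), and the time of day of collection is not given in the sources used here. The part of the clock in the differences between groups was not tested. Alveolar epithelial markers summed to 17605 to 19536 FPKM in IPF and 13340 to 20926 FPKM in sham lungs, none of the 7 was at 0, and 0 of 7 passed. B cell markers passed the test, all upward, for 7 of 9 genes (9 of 9 had a positive fold change; summed 37.7 to 56.6 FPKM in IPF against 20.6 to 33.3 FPKM in sham lungs), and natural killer cell markers for 3 of 6 (6 of 6 positive; 10.8 to 17.2 against 3.71 to 9.04 FPKM). T cell markers passed for 1 of 9 (9 of 9 positive; 19.6 to 25.8 against 12.4 to 19.7 FPKM), macrophage and monocyte markers for 2 of 11 (9 of 11 positive; 367 to 563 against 335 to 493 FPKM), endothelial markers for 1 of 8 (6 of 8 positive; 1212 to 1379 against 1051 to 1115 FPKM) and fibroblast and smooth muscle markers for 1 of 8 (1 of 8 positive; 438 to 659 against 516 to 603 FPKM). Neutrophil markers passed for 0 of 9, but 9 of 9 had a positive fold change (median 0.97 on the log2 scale). An unadjusted limma p under 0.05 was found for 5 of 9, where 19.5% of all genes had one. The same unadjusted count was 8 of 9 for B cell, 5 of 6 for natural killer cell and 5 of 9 for T cell markers. It was 4 of 11 for macrophage and monocyte, 4 of 8 for endothelial and 1 of 8 for fibroblast and smooth muscle markers. The neutrophil sum had a median of 79.1 FPKM in IPF (56.0 to 84.6 FPKM in 4 samples and 304 FPKM in replicate 5) and of 41.8 FPKM in sham lungs (16.1 to 87.0 FPKM). Airway markers passed for 0 of 7 (1 of 7 positive) and thymus and heart markers for 0 of 5 (3 of 5 positive). No marker of these lists was at 0 in all 10 samples. The airway sum ranged from 3560 to 26697 FPKM in IPF and from 11283 to 22541 FPKM in sham lungs, and the thymus and heart sum from 21.9 to 88.5 FPKM and from 30.2 to 85.6 FPKM.

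In the members as a whole, 7 of 39 tested genes passed an adjusted p under 0.05, where 5.85% of all 20448 genes did. Tnfrsf19, Tnfsf10, Tnfrsf10b, Tnfrsf13b and Tnfrsf1b were higher in IPF (3.71% of all genes rose), and Tnfrsf21 and Tnfaip8l3 were lower (2.14% of all genes fell). The test was limma on log2(FPKM + 0.1) over genes with a mean of at least 0.1 FPKM. The log2 fold change (log2FC, IPF minus sham) is on that same scale, where low genes appear to differ by less than they do in FPKM. No member passed an adjusted p under 0.05 together with an absolute log2FC above 1, the limits set by the study, whereas 1.14% of all genes did. The fold change was positive for 26 and negative for 13 members, with a median of 0.13 against 0.0016 over all genes. For 6 members every IPF value lay on 1 side of every sham value, and the same held for 7.29% of all genes. Because these are whole lungs, fewer cells of a type and less RNA per cell cannot be told apart in any of the values. The labels do not state whether samples came from different litters, so the p-values measure the spread between these samples.

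The members lie on 16 autosomes and none on X or Y. Chromosome 4 holds 9 of them. In 9 pairs, made of 16 genes, neighbours lie within 200 kb of each other, among them Tnfrsf26, Tnfrsf22 and Tnfrsf23 on chromosome 7, and Tnfrsf1b and Tnfrsf8 on chromosome 4. Of that last pair Tnfrsf1b rose and Tnfrsf8, a receptor of activated lymphocytes, did not pass (log2FC -0.01, limma adjusted p = 0.995). On chromosome 11 the readthrough gene Tnfsfm13 (69682577 to 69696098, GRCm38) spans Tnfsf13 and Tnfsf12, and the antisense gene Tnfsf13os overlaps them, so reads on these genes could be assigned to more than 1 of them and their values are uncertain.

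Mean levels over the 10 lungs were at least 10 FPKM for 8 members, 1 to 10 FPKM for 19, 0.1 to 1 FPKM for 12 and under 0.1 FPKM for 2. Tnfrsf1a, the widely expressed death domain receptor for TNF, was the most abundant receptor and the most abundant member, and Tnfaip1 and Tnfsf10 followed. Tnfsf4 and Tnfsf18, which costimulate T cells, were below 0.1 FPKM and were not tested. Tnfsf4 had 0 reads in every sham lung and 0 to 3 reads in the IPF lungs, and Tnfsf18 had 0 to 7 reads in IPF and 0 to 2 reads in sham lungs.

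**Figure D1:**
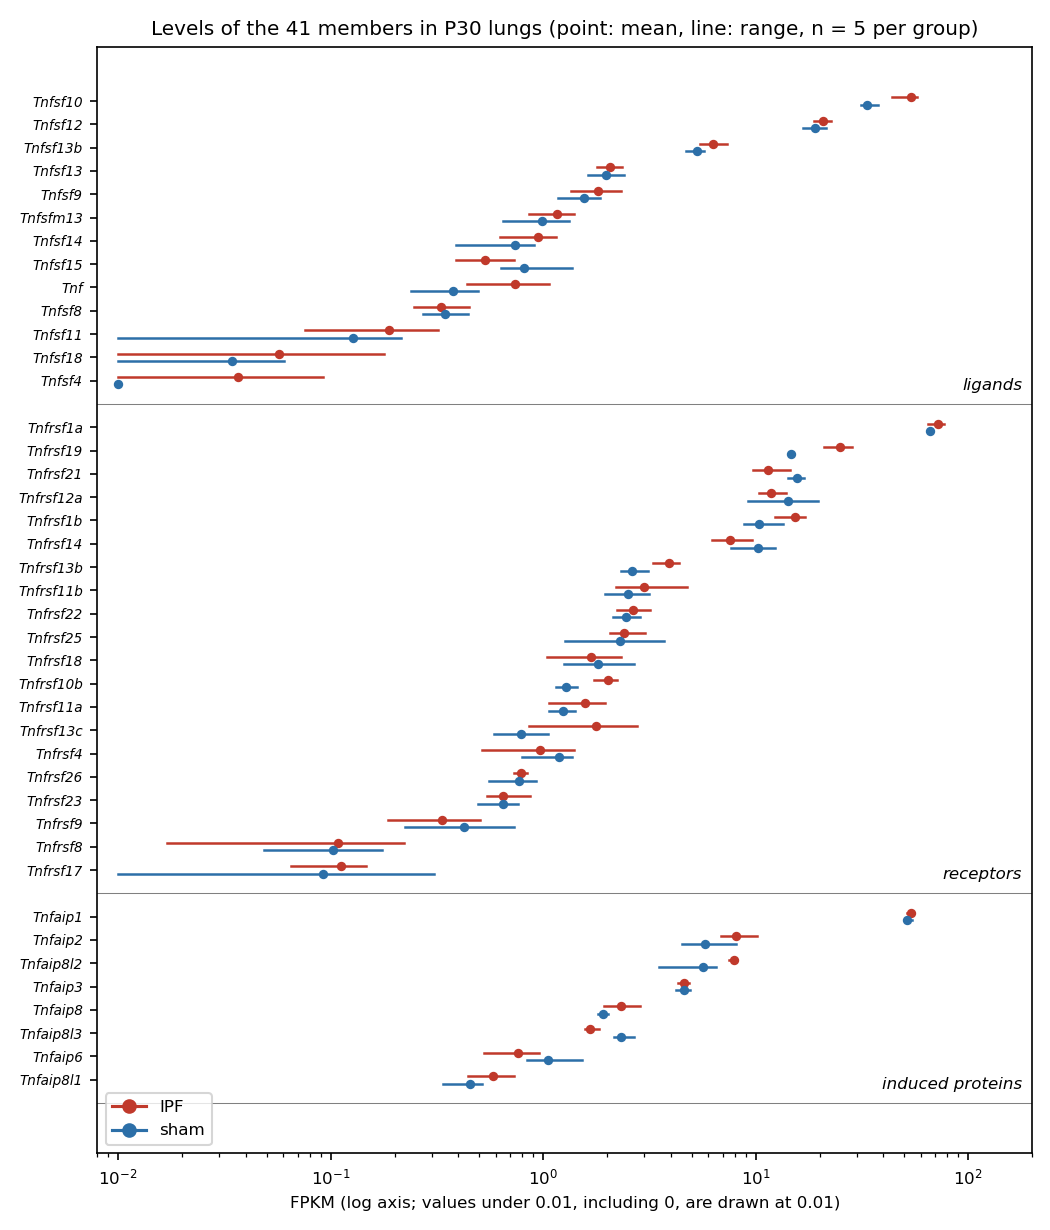
FPKM of the 41 members on a log axis, ligands above, receptors in the middle and induced proteins below, with a point for the mean of each group and a line for the range of its 5 samples. Tnfrsf1a, Tnfaip1 and Tnfsf10 stand at the right, and 8 members have a mean of at least 10 FPKM.

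The starts of 4 member genes are shown because they bear on the genes described next: Tnfsf10, the ligand that rose, Tnfrsf1b, which rose, Tnfrsf21, which fell, and Tnfaip3, the NF-κB target among the members. The sequences are from RefSeq (GRCm38.p6), from 250 bases before to 10 bases after the transcription start, each written 5′ to 3′ on the strand of its gene. Capitals mark matches to the NF-κB consensus, the interferon-stimulated response element (GAAA, any 2 bases, GAAA) or the E-box bound by clock factors (CACGTG), each searched on both strands.
Tnfsf10 chr3:27316827-27317086, plus strand: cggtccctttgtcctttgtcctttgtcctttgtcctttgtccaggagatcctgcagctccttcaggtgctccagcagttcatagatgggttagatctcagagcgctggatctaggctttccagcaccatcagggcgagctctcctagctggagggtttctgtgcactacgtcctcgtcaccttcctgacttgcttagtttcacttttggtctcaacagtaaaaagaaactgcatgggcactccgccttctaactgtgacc
Tnfrsf1b chr4:145246861-145247120, minus strand: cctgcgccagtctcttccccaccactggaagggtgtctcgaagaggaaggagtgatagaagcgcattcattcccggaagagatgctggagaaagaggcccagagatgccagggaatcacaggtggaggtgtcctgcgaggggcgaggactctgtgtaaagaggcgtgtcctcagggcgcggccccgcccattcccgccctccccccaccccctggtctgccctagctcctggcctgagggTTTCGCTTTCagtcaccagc
Tnfrsf21 chr17:43016305-43016564, plus strand: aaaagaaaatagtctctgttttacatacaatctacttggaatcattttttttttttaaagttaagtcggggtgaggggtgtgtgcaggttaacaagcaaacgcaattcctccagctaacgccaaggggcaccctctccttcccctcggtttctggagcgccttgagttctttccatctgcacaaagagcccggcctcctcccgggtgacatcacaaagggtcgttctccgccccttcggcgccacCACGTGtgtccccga
Tnfaip3 chr10:19015401-19015660, minus strand: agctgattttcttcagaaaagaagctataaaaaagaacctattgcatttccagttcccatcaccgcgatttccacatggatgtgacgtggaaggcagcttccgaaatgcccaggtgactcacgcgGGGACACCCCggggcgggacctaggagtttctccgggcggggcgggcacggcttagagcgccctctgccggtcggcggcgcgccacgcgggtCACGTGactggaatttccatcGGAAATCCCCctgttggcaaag
The Tnfsf10 window held none of these 3 motifs. In Tnfrsf1b the capitals are an interferon-stimulated response element on the opposite strand that begins 10 bases before the start, and in Tnfrsf21 they are an E-box that begins 5 bases before it. In Tnfaip3 they are NF-κB matches 125 and 12 bases before the start and an E-box 33 bases before it. The Tnfaip3 window was chosen as the window of that gene with the most NF-κB matches, so their presence is not a finding. The other windows were not chosen by a motif. The Tnfaip3 window overlaps the deposited gene (19000910 to 19015657), so the start used lies inside it.

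Windows of 250 bases before to 50 bases after a start were found for 33 of the 41 members (38 windows, as some genes have several starts), and the motif matches were counted beside those in all 32841 windows. The NF-κB consensus occurred in 4 members (Tnfrsf8, Tnfrsf9, Tnfaip3 and Tnfaip8l1), in 10.5% of the 38 member windows and in 4.51% of all windows. The interferon-stimulated response element occurred in 4 members (Tnfrsf1b, Tnfrsf14, Tnfsf13b and Tnfrsf17), in 10.5% of the member windows and in 3.44% of all windows. The E-box occurred in 5 members (Tnfrsf8, Tnfrsf4, Tnfaip3, Tnfrsf19 and Tnfrsf21), in 13.2% of the member windows and in 7.15% of all windows. Of the 6 passing members with a window, 0 held the NF-κB consensus, 1 the interferon-stimulated response element and 2 the E-box. Matches to different motifs did not overlap. A match is a description of the letters only.

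Among the ligands, 1 of 11 tested genes passed (9.09%, against 5.85% of all genes), and it was higher in IPF. Tnfsf10 (ENSMUSG00000039304, chromosome 3, 27317028 to 27342427, GRCm38) encodes TRAIL, which can start apoptosis through Tnfrsf10b and is induced by interferons. Its level was 57.4, 56.8, 56.2, 56.4 and 43.7 FPKM in IPF replicates 1 to 5 and 31.3, 34.9, 32.0, 31.4 and 37.7 FPKM in sham replicates 1 to 5. Every IPF lung was above every sham lung, and the lowest IPF value was that of replicate 5. The mean rose 1.62-fold, from 33.5 ± 2.77 to 54.1 ± 5.86 FPKM (SD, n = 5 each). The log2FC was 0.69 with a standard error of 0.09 (limma adjusted p = 0.00146). The exact two-sided permutation test gave p = 0.00794, the smallest it can give, and the call held in all 10 fits that left out 1 sample.

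Tnfsf10 was the most abundant ligand in both groups. It made up 60.6 ± 2.27% of the summed ligand FPKM in IPF and 51.7 ± 3.16% in sham lungs (SD, n = 5 each). The summed level of all 13 ligands was 89.0 ± 7.12 FPKM in IPF and 64.8 ± 3.32 FPKM in sham lungs, and without Tnfsf10 it was 34.9 ± 1.81 and 31.3 ± 2.56 FPKM.

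Tnf itself (ENSMUSG00000024401, chromosome 17, 35199381 to 35202007), the inflammatory cytokine made mainly by macrophages and T cells, was low. It was at 0.717, 0.439, 0.549, 0.904 and 1.07 FPKM in IPF replicates 1 to 5 and at 0.444, 0.374, 0.494, 0.330 and 0.240 FPKM in sham replicates 1 to 5. Of the 5 IPF lungs, 4 were above all sham lungs, and IPF replicate 2 lay within the sham range. These values rest on 12 to 31 reads per IPF lung and 6 to 13 reads per sham lung. The log2FC was 0.78 (95% confidence interval 0.24 to 1.32), with a limma adjusted p = 0.0980 that did not pass, and an exact permutation p of 0.0238. IPF replicates 5 and 4, which had the highest Tnf values, also had the highest sums of macrophage and monocyte markers (563 and 555 FPKM), and the neutrophil sum was 304 FPKM in replicate 5 and 67.9 FPKM in replicate 4. In the sham group the order was the other way, since sham replicate 5 had the highest sum of both lists (493 and 87.0 FPKM) and the lowest Tnf value. The part of these cells in the Tnf values was not tested.

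The next most abundant ligands did not pass. Tnfsf12 (TWEAK), the ligand of Tnfrsf12a, was at 20.8 ± 1.66 FPKM in IPF and 19.0 ± 1.95 FPKM in sham lungs (limma adjusted p = 0.421). Tnfsf13b (BAFF), the survival factor of B cells, was at 6.28 ± 0.731 and 5.28 ± 0.407 FPKM (SD, n = 5 each), with 4 of 5 IPF lungs above all sham lungs, a log2FC of 0.24 and a limma adjusted p = 0.154. Tnfsf13 (APRIL), its relative, was at 2.06 ± 0.257 and 1.98 ± 0.326 FPKM (limma adjusted p = 0.854). The other tested ligands, Tnfsf8, Tnfsf9, Tnfsf11, Tnfsf14, Tnfsf15 and Tnfsfm13, had log2FCs from -0.50 (Tnfsf15) to 0.38 (Tnfsf11), and the smallest limma adjusted p among them was 0.257 (Tnfsf15).

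**Figure D2:**
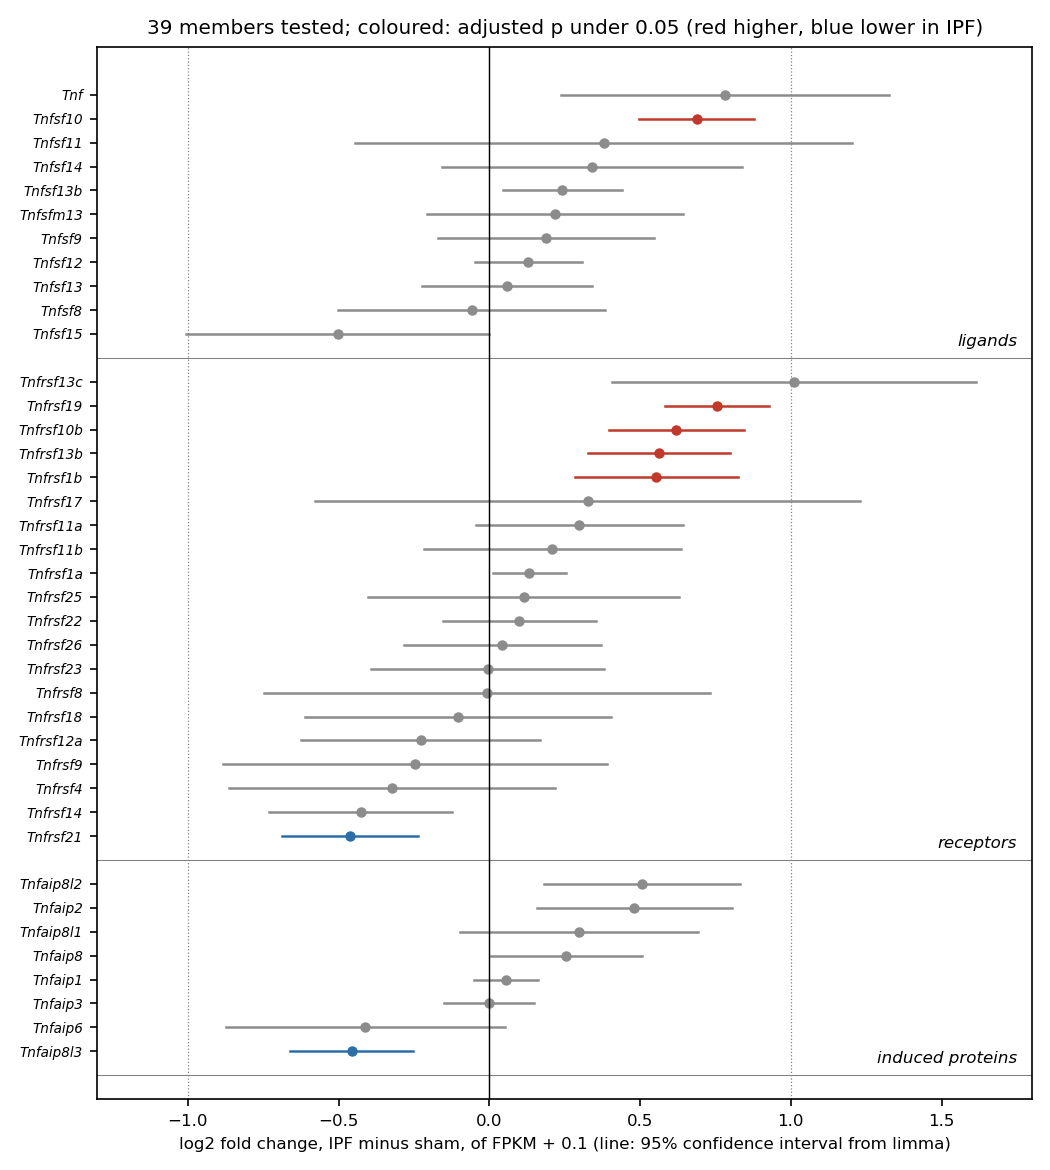
Log2FC of FPKM + 0.1, IPF minus sham, of the 39 tested members with the 95% confidence interval from limma, ordered within ligands, receptors and induced proteins, with dotted lines at a log2FC of 1 in either direction. Red points rose and blue points fell at an adjusted p under 0.05, and Tnfrsf13c lies furthest to the right in grey with a log2FC of 1.01.

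Among the receptors, 5 of 20 passed (25%, against 5.85% of all genes), 4 higher and 1 lower. Without IPF replicate 4 or without sham replicate 1 the count was 3, since Tnfrsf1b and Tnfrsf21 no longer passed. The summed receptor level was 165 ± 5.22 FPKM in IPF and 149 ± 3.75 FPKM in sham lungs, and Tnfrsf1a made up 43.7 ± 1.99% and 44.1 ± 0.799% of it (SD, n = 5 each).

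Of the 4 death domain receptors, Tnfrsf10b rose and Tnfrsf21 fell. Tnfrsf10b (ENSMUSG00000022074, chromosome 14, 69767472 to 69784411) is the receptor through which Tnfsf10 signals death in the mouse. Its level was 1.75, 2.22, 1.97, 2.08 and 2.07 FPKM in IPF replicates 1 to 5 and 1.21, 1.16, 1.31, 1.44 and 1.26 FPKM in sham replicates 1 to 5. The groups did not overlap, and the mean rose 1.58-fold, from 1.28 ± 0.109 to 2.02 ± 0.177 FPKM (SD, n = 5 each). The log2FC was 0.62 (standard error 0.10, limma adjusted p = 0.00589). The call held in all 10 fits that left out 1 sample. Ligand and receptor of this pair both passed, in the same direction.

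The receptors that bind Tnfsf10 without signalling death did not pass the test. Tnfrsf22 and Tnfrsf23, the decoy receptors of the mouse, were at 2.64 ± 0.369 and 0.647 ± 0.134 FPKM in IPF and at 2.46 ± 0.287 and 0.649 ± 0.119 FPKM in sham lungs (SD, n = 5 each). Their limma adjusted p-values were 0.688 and 0.993. Tnfrsf11b, the secreted osteoprotegerin, which also binds Tnfsf11, was at 3.00 ± 1.00 and 2.52 ± 0.465 FPKM (SD, n = 5 each), and its limma adjusted p was 0.609. These 3 genes and Tnfrsf26 form the group of secreted and decoy receptors, of which 0 of 4 passed.

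Tnfrsf21 (ENSMUSG00000023915, chromosome 17, 43016555 to 43089189) encodes a death domain receptor of neurons, lymphocytes and endothelium. Its level was 10.3, 9.77, 11.9, 10.6 and 14.5 FPKM in IPF replicates 1 to 5 and 16.9, 14.2, 16.5, 15.0 and 15.6 FPKM in sham replicates 1 to 5. Of the 5 IPF lungs, 4 were below all sham lungs, while IPF replicate 5 lay inside the sham range. The mean fell from 15.6 ± 1.11 to 11.4 ± 1.91 FPKM (SD, n = 5 each). The log2FC was -0.46 with a standard error of 0.10 (limma adjusted p = 0.0228). Its call was lost in 5 of the 10 fits that left out 1 sample (without IPF replicates 1, 2 or 4 or sham replicates 1 or 3), where the adjusted p reached at most 0.0652. The E-box in its window is that shown above. An E-box was also found for Tnfrsf19, which rose, and for Tnfaip3, Tnfrsf4 and Tnfrsf8, which did not pass. Whether the clock genes have a part in the Tnfrsf21 difference was not tested.

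Tnfrsf1a (ENSMUSG00000030341, chromosome 6, 125349362 to 125362484), the main signalling receptor for TNF, was at 71.6, 65.1, 74.2, 73.6 and 77.5 FPKM in IPF replicates 1 to 5 and at 65.7, 64.3, 67.8, 66.9 and 65.1 FPKM in sham replicates 1 to 5. Of the 5 IPF lungs, 4 were above all sham lungs, but the difference was small, with a log2FC of 0.13 (95% confidence interval 0.01 to 0.25) and a limma adjusted p = 0.211. Tnfrsf25, the death domain receptor for Tnfsf15, had a log2FC of 0.11 (limma adjusted p = 0.844).

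Of the 6 TRAF-binding receptors of leukocytes, Tnfrsf1b was the member that rose. Tnfrsf1b (ENSMUSG00000028599, chromosome 4, 145213463 to 145246870) is the TNF receptor without a death domain, found on leukocytes and endothelium and activated best by membrane-bound TNF. Its level was 14.2, 12.4, 15.9, 16.7 and 17.1 FPKM in IPF replicates 1 to 5 and 9.57, 9.32, 11.0, 8.84 and 13.4 FPKM in sham replicates 1 to 5. Of the 5 IPF lungs, 4 were above all sham lungs, and IPF replicate 2 lay below sham replicate 5. The mean rose 1.47-fold, from 10.4 ± 1.85 to 15.3 ± 1.94 FPKM (SD, n = 5 each). The log2FC was 0.55 with a standard error of 0.12 (limma adjusted p = 0.0228). Its call was lost in 4 of the 10 fits that left out 1 sample (without IPF replicate 4 or sham replicates 1, 2 or 4), where the adjusted p reached at most 0.0667. The highest Tnfrsf1b value in each group was that of replicate 5, which also had the highest neutrophil sum (304 and 87.0 FPKM) and the highest macrophage and monocyte sum (563 and 493 FPKM) of its group. Within the IPF group the endothelial sum was also highest in replicate 5 (1379 FPKM) and lowest in replicate 2 (1212 FPKM), as Tnfrsf1b was. In the sham group the endothelial sum was highest in replicate 3 (1115 FPKM). The part of these cells in the Tnfrsf1b values was not tested.

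None of the 5 other leukocyte receptors of this kind passed. Tnfrsf14, the receptor for Tnfsf14, was at 7.60 ± 1.30 FPKM in IPF and 10.3 ± 1.73 FPKM in sham lungs (SD, n = 5 each), with a log2FC of -0.43 and a limma adjusted p = 0.104. It passed in 1 of the 10 fits that left out 1 sample (limma adjusted p = 0.0395 without sham replicate 2). Without sham replicate 1 the adjusted p reached 0.214. The costimulatory receptors Tnfrsf4, Tnfrsf8, Tnfrsf9 and Tnfrsf18 had log2FCs from -0.32 (Tnfrsf4) to -0.01 (Tnfrsf8) and limma adjusted p-values of at least 0.519, and the sign for Tnfrsf8 and Tnfrsf18 changed in fits that left out 1 sample (up to 0.18 and 0.05).

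Of the 3 TRAF-binding receptors of tissue cells, Tnfrsf19 rose and had the smallest p-value of all members. Tnfrsf19 (ENSMUSG00000060548, chromosome 14, 60963875 to 61046490) encodes TROY, a receptor of developing epithelium, mesenchyme and neurons that has no agreed ligand of this family. Its level was 25.3, 27.2, 23.0, 28.4 and 21.0 FPKM in IPF replicates 1 to 5 and 15.0, 14.3, 14.5, 14.6 and 15.0 FPKM in sham replicates 1 to 5. The sham lungs were nearly alike and all IPF lungs were above them. The mean rose 1.70-fold, from 14.7 ± 0.299 to 25.0 ± 3.04 FPKM (SD, n = 5 each). The log2FC was 0.76 with a standard error of 0.08 (limma adjusted p = 0.000435). The exact permutation p was 0.00794, and the call held in all 10 fits that left out 1 sample. The other tissue receptors did not pass: Tnfrsf11a, the receptor for Tnfsf11, had a log2FC of 0.30 (limma adjusted p = 0.329), and Tnfrsf12a, the receptor for Tnfsf12, one of -0.23 (limma adjusted p = 0.540). The Tnfrsf12a samples were spread from 9.20 to 19.7 FPKM among sham lungs alone.

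**Figure D3:**
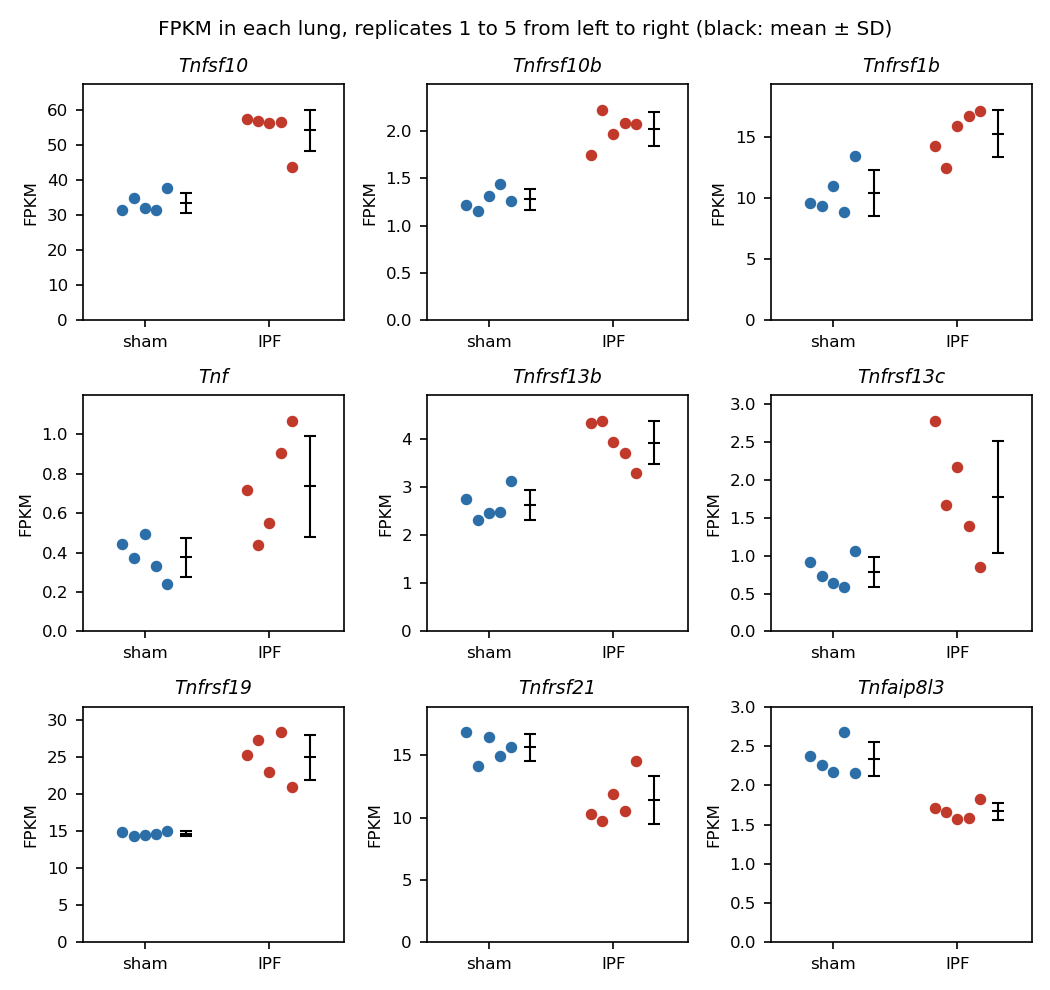
FPKM of 9 members in each lung (y axis from 0), with sham in blue and IPF in red, replicates 1 to 5 from left to right, and the mean ± SD of each group in black. Tnfsf10, Tnfrsf10b, Tnfrsf13b, Tnfrsf19 and Tnfaip8l3 show no overlap between the groups, while Tnf and Tnfrsf13c, which did not pass the test, each show 4 of 5 IPF lungs above all sham lungs.

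The 3 receptors for BAFF and APRIL are carried by cells of the B lineage. Tnfrsf13b (TACI; ENSMUSG00000010142, chromosome 11, 61126755 to 61149372) was at 4.33, 4.38, 3.94, 3.71 and 3.29 FPKM in IPF replicates 1 to 5 and at 2.76, 2.32, 2.46, 2.48 and 3.12 FPKM in sham replicates 1 to 5. All IPF lungs were above all sham lungs, and the gap between IPF replicate 5 and sham replicate 5 was small. The mean rose 1.50-fold, from 2.63 ± 0.319 to 3.93 ± 0.452 FPKM (SD, n = 5 each). The log2FC was 0.56 with a standard error of 0.11 (limma adjusted p = 0.0110), and the call held in all 10 fits that left out 1 sample.

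Tnfrsf13c, the BAFF receptor of mature B cells, was chosen for description after its values were seen, as it had the largest fold change of all members. It was at 2.78, 1.67, 2.17, 1.39 and 0.856 FPKM in IPF replicates 1 to 5 and at 0.918, 0.735, 0.639, 0.586 and 1.06 FPKM in sham replicates 1 to 5. Of the 5 IPF lungs, 4 were above all sham lungs, and IPF replicate 5 lay within the sham range. The log2FC was 1.01 (95% confidence interval 0.41 to 1.61), with a limma adjusted p = 0.0570 that did not pass. It passed in 1 of the 10 fits that left out 1 sample, without IPF replicate 5 (log2FC 1.23, limma adjusted p = 0.00872), and the adjusted p reached 0.127 without sham replicate 3. Tnfrsf17, the receptor of plasma cells, had 0 to 4 reads per lung (limma adjusted p = 0.721).

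The B cell markers are set beside these receptors. Of the 9 markers 7 passed the test, among them Ms4a1, Cd79a, Cd79b, Pax5, Cd22 and Blk, and the log2FCs of the list had a median of 0.83. Ms4a1 (CD20) had a log2FC of 1.19 (limma adjusted p = 0.00336) and Cd79a one of 1.02 (limma adjusted p = 0.00591). The lowest B cell sum of the IPF lungs was that of replicate 5 (37.7 FPKM), which also had the lowest Tnfrsf13b and Tnfrsf13c values of its group. In the sham group the highest B cell sum was that of replicate 3 (33.3 FPKM), while both receptors were highest in replicate 5, whose sum was 29.4 FPKM. The part of B cell number in the Tnfrsf13b and Tnfrsf13c values was not tested.

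**Figure D4:**
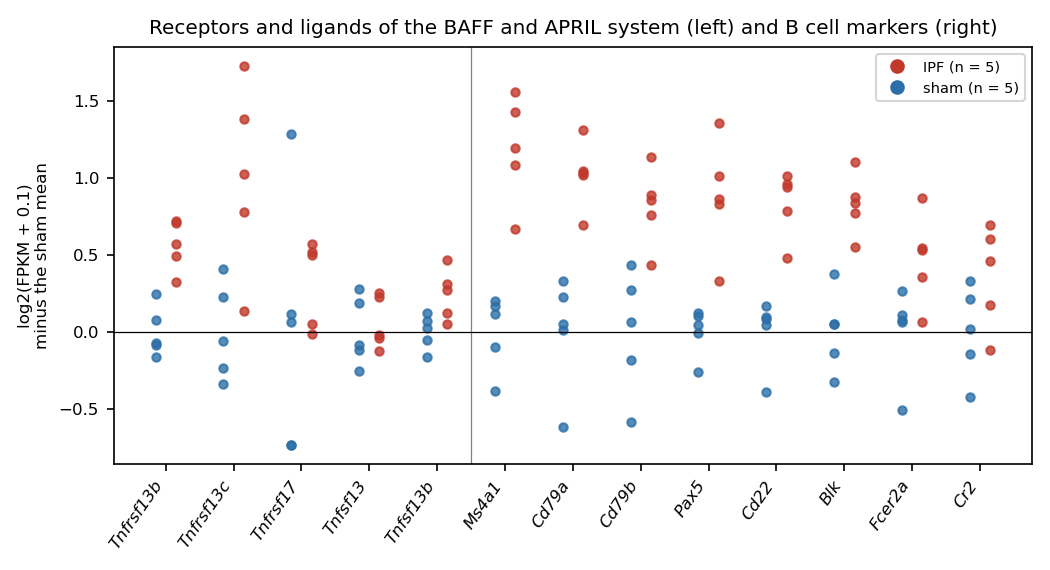
Log2(FPKM + 0.1) minus the sham mean for the receptors and ligands of the BAFF and APRIL system (left of the line) and 8 B cell markers (right of the line), 1 point per lung, sham in blue and IPF in red. Tnfrsf13b and 6 of the 8 markers drawn passed the test, and the ligands Tnfsf13 and Tnfsf13b, whose groups overlap, did not.

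Among the Tnfaip genes, 1 of 8 passed (12.5%, against 5.85% of all genes), and it was lower in IPF. Tnfaip8l3 (ENSMUSG00000074345, chromosome 9, 54023405 to 54068388) encodes a phosphoinositide transfer protein named for its likeness to Tnfaip8. Its level was 1.72, 1.66, 1.57, 1.58 and 1.82 FPKM in IPF replicates 1 to 5 and 2.38, 2.26, 2.17, 2.68 and 2.16 FPKM in sham replicates 1 to 5. The groups did not overlap. The mean fell from 2.33 ± 0.216 to 1.67 ± 0.105 FPKM (SD, n = 5 each). The log2FC was -0.46 with a standard error of 0.09 (limma adjusted p = 0.0155).

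Tnfaip3 (ENSMUSG00000019850, chromosome 10, 19000910 to 19015657), a ubiquitin-editing enzyme that NF-κB induces and that shuts NF-κB off again, had nearly equal means in the groups (4.59 ± 0.240 and 4.60 ± 0.281 FPKM, SD, n = 5 each). It was at 4.30, 4.70, 4.72, 4.37 and 4.86 FPKM in IPF replicates 1 to 5 and at 4.92, 4.24, 4.84, 4.53 and 4.47 FPKM in sham replicates 1 to 5. The log2FC was -0.00 with a 95% confidence interval from -0.15 to 0.15 (limma adjusted p = 0.992). The values rest on 493 to 645 reads per lung. Its window, chosen for having the most such matches, holds 2 of the NF-κB matches shown above.

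Tnfaip2 and Tnfaip8l2 had the next smallest p-values of the group and did not pass. Tnfaip8l2, a regulator of leukocyte activation and also named for likeness, was at 7.54 to 8.17 FPKM in IPF and 3.51 to 6.55 FPKM in sham lungs, with no overlap, a log2FC of 0.51 and a limma adjusted p = 0.0728. Without sham replicate 1, which had the lowest value, its log2FC was 0.35 and it passed (limma adjusted p = 0.0162), the 1 such fit of 10, and without IPF replicate 4 the adjusted p was 0.153. Tnfaip2, which builds membrane nanotubes and is induced by TNF in endothelium, was at 6.87 to 10.1 FPKM in IPF and 4.53 to 8.12 FPKM in sham lungs, with a log2FC of 0.48 and a limma adjusted p = 0.0876. Without sham replicate 5, its log2FC was 0.61 and it passed (limma adjusted p = 0.0167), again in 1 fit of 10, and without IPF replicate 4 the adjusted p was 0.193.

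Tnfaip1, an adaptor of a cullin ubiquitin ligase, was the most abundant of the group at 53.9 ± 1.95 FPKM in IPF and 51.9 ± 1.92 FPKM in sham lungs (SD, n = 5 each). Its limma adjusted p was 0.592. The remaining Tnfaip6, Tnfaip8 and Tnfaip8l1 had log2FCs of -0.41, 0.26 and 0.30 and limma adjusted p-values of at least 0.246.

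The rest of the pathway was taken from 5 lists of 94 genes in all, of which 92 were tested. In these lists 19 genes passed (20.7%, against 5.85% of all genes), 17 higher and 2 lower (3.71% and 2.14% of all genes), and 3 were also past a log2FC of 1 in either direction (1.14% of all genes). Leaving out 1 sample gave counts from 9, when IPF replicate 3 was dropped (1139 of all genes), to 24, when IPF replicate 5 was (1619 of all genes). The median log2FC was 0.12. At a mean of at least 1 FPKM, 28.4% of the 74 tested genes of these lists passed, against 9.55% of all genes. The lists were chosen with earlier results of these data known.

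Of 6 ligands with other names, 5 were tested and Ltb passed (20%, against 5.85% of all genes). Ltb (lymphotoxin β), which organizes lymphoid tissue, was at 9.73 to 11.7 FPKM in IPF and 3.36 to 7.60 FPKM in sham lungs, with a log2FC of 0.83 (limma adjusted p = 0.0243), and passed in 4 of the 10 fits that left out 1 sample. Lta, which binds the same receptors as Tnf, was at 0 to 0.535 FPKM in IPF and 0.142 to 0.270 FPKM in sham lungs (limma adjusted p = 0.873). Of 8 receptors with other names, Cd40 and Relt passed (25%). Cd40, the receptor of B cells and antigen-presenting cells for T cell help, was at 5.94 to 8.77 FPKM in IPF and 4.22 to 5.58 FPKM in sham lungs, with a log2FC of 0.62 (limma adjusted p = 0.00774). Relt, a receptor of lymphoid tissue, had a log2FC of 0.56 (limma adjusted p = 0.0352) and passed in 3 of the 10 fits.

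Of 38 adaptors, proteases and kinases, 3 passed, all higher in IPF. Adam17, the protease that sheds Tnf and both of its receptors from the cell surface, was at 17.6 ± 1.59 FPKM in IPF and 12.7 ± 0.548 FPKM in sham lungs (SD, n = 5 each). Its log2FC was 0.46 (limma adjusted p = 0.00336), and the call held in all 10 fits that left out 1 sample. Map3k14, the kinase of the slower NF-κB route, and Traf5, an adaptor, had log2FCs of 0.39 and 0.33 (limma adjusted p-values 0.0354 and 0.0406), but each passed in 1 of those 10 fits. The share of this list that passed, 7.89%, was near the 5.85% of all genes.

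Of 11 NF-κB subunits and inhibitors, Relb and Bcl3 passed (18.2%, against 5.85% of all genes). Relb, the transcription factor of the slower route, was at 5.38 to 7.42 FPKM in IPF and 4.42 to 5.36 FPKM in sham lungs, with a log2FC of 0.48 (limma adjusted p = 0.0127). Bcl3, a nuclear partner of NF-κB, was at 7.28 ± 1.33 and 4.46 ± 0.594 FPKM (SD, n = 5 each), with a log2FC of 0.68 (limma adjusted p = 0.0155). Both calls held in all 10 fits that left out 1 sample. Within the IPF group Cd40, Relb and Bcl3 (5.94, 5.38 and 5.12 FPKM) were lowest in replicate 5, as was the B cell marker sum (37.7 FPKM), but so were Adam17, Tnfrsf19 and Tnfsf10. In the sham group the order differed for Relb and Bcl3, since replicate 4, with the lowest B cell sum (20.6 FPKM), had their highest values (5.36 and 5.31 FPKM). Among sham lungs Cd40 was highest in replicate 3 (5.58 FPKM), as was the B cell sum (33.3 FPKM). The part of B cells in these values was not tested. Nfkbia, an inhibitor that NF-κB induces, was named after its values were seen and lay on the other side, at 61.3 ± 8.78 FPKM in IPF and 78.4 ± 6.46 FPKM in sham lungs (SD, n = 5 each), with 4 of 5 IPF lungs below all sham lungs. Its log2FC was -0.36 with a limma adjusted p of 0.0504, which did not pass. It passed in 1 of the 10 fits that left out 1 sample (limma adjusted p = 0.00555 without IPF replicate 5), and the adjusted p reached 0.126 without IPF replicate 4.

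Of 31 genes known to be induced by TNF, 30 were tested and 11 passed (36.7%, against 5.85% of all genes), 9 higher and 2 lower. Plau, the urokinase that activates plasminogen, was at 4.78 ± 0.708 FPKM in IPF and 2.68 ± 0.194 FPKM in sham lungs (SD, n = 5 each), with a log2FC of 0.80 (limma adjusted p = 0.00215). Irf1, a transcription factor that interferons also induce, was at 32.1 to 34.8 FPKM in IPF and 23.7 to 27.8 FPKM in sham lungs, with a log2FC of 0.36 (limma adjusted p = 0.00344). Csf1, the growth factor of macrophages, had a log2FC of 0.39 (limma adjusted p = 0.0135) and Ier3, an immediate early gene linked to cell survival, one of 0.48 (limma adjusted p = 0.0280), which passed in 4 of the 10 fits that left out 1 sample.

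Tissue factor and Lcn2 were the 2 genes of this list that fell. F3, which encodes tissue factor, the starter of coagulation, was at 11.0, 11.3, 15.2, 10.2 and 13.8 FPKM in IPF replicates 1 to 5 and at 27.7, 25.2, 28.1, 24.6 and 23.4 FPKM in sham replicates 1 to 5. Every IPF lung was below every sham lung, and the log2FC was -1.08 (limma adjusted p = 0.000347). Lcn2, an iron-scavenging protein of neutrophils and epithelium, was named after its values were seen and had a log2FC of -0.73 (limma adjusted p = 0.0291). F3 was 1 of the 3 genes past both limits, and the others, also named after their values were seen, were Ccl2 (log2FC 1.78, limma adjusted p = 0.0371), on 0 to 5 reads per sham lung and 5 to 24 reads per IPF lung, and Lif (log2FC 1.03, limma adjusted p = 0.0353), each of which passed in 2 of the 10 fits that left out 1 sample.

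**Figure D5:**
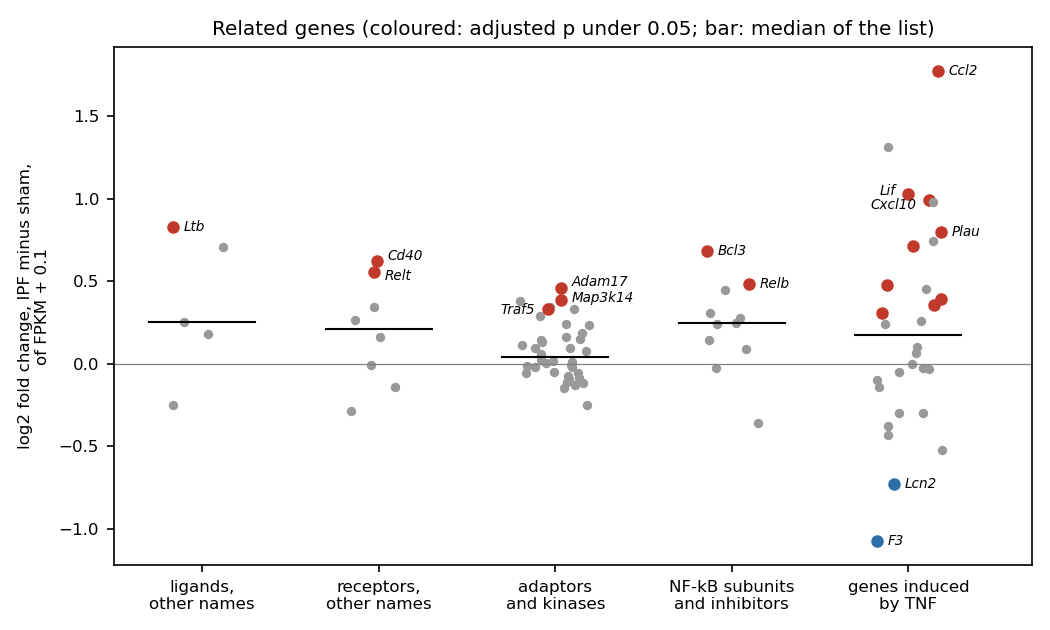
Log2FC of FPKM + 0.1, IPF minus sham, of the 92 tested genes of the 5 lists, 1 point per gene, with a bar at the median of each list. Red points rose and blue points fell at an adjusted p under 0.05, with names for some of them, and F3 is the lowest point and Ccl2 the highest.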

How the data were processed

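Per the study's methods, Fastp was used for trimming, HISAT2 for alignment and StringTie for quantification, and the authors deposited 1 FPKM value per gene and sample. The labels list Bowtie 0.12.2 as well, and hg38, GRCm38 and mm10 as builds. The study's methods name GRCm39, but the gene positions are those of GRCm38, and 99.8% of matched genes overlap their RefSeq GRCm38.p6 entry. The labels name the NEBNext Ultra kit, the methods the KAPA mRNA HyperPrep kit. Whether counting used strand is not given in the sources used here. FPKM steps gave whole reads for 100% of values within 0.02, hence the read numbers.

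Genes with a mean of at least 0.1 FPKM were fitted with limma 3.58.1 (R 4.3.3; variance trend, no covariate) on log2(FPKM + 0.1), and Benjamini-Hochberg adjustment covered 20448 genes. The fit was tested on simulated data. Single values were tested by exact two-sided permutation. Tables were made with Python 3.11.15 and pandas 2.3.3. The authors used DESeq2 on counts, which was not used here. Members and lists were chosen with earlier results of these data known, and the receptor subgroups after the values were at hand. Named genes are the members that passed, Tnf, Tnfrsf1a, Tnfrsf1b, Tnfaip3, the 3 most abundant and the 3 with the smallest p of each role, partners of passing members, and up to 5 passing genes per related list. Tnfrsf13c was added after its values were seen. The values of 1 marker gene are not reported here. Alternatives were pseudocounts of 1 and 0.01, no filter, a mean of at least 1 FPKM, median-of-ratios scaling, no trend, the replicate number as a block, voom on recovered reads, and leaving out each sample.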

Additional observations from a re-analysis of the deposited data

Results flagged for a closer look

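In 68 groups of 5 samples examined, 2 had an end value far from the other samples by Dixon's criterion, 2.94%, where chance gives about 1 in 20. Tnfsf10 in IPF replicate 5 was the lowest of its group at 43.7 FPKM, and the next value was 56.2 FPKM. Tnfrsf11b in IPF replicate 5 was the highest of its group at 4.73 FPKM, and the next value was 2.82 FPKM. Both values are those of the sample with the highest neutrophil marker sum (304 FPKM) and the lowest B cell marker sum of the IPF group (37.7 FPKM). In the sham group the highest neutrophil sum (87.0 FPKM, replicate 5) went with the highest Tnfsf10 value (37.7 FPKM). The part of these cells was not tested.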

How the results depend on the processing

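The count of passing members was 5 to 8 when 1 sample was left out, 6 with the replicate block and 8 both with a mean of at least 1 FPKM (adding Tnfrsf13c) and with voom (adding Tnfaip2). Receptors ranged from 3 to 6 and induced proteins from 1 to 2 without 1 sample, and induced proteins were 0 with the replicate block, which lost Tnfaip8l3, and 2 with voom. Related genes were 10 with no filter, 12 with no trend, 12 with the replicate block (which lost Csf1, Ltb, Map3k14, Relt and Traf5, among others) and 9 to 24 without 1 sample. Over all genes the count was 748 (without IPF replicate 4), 788 (without IPF replicate 2) or 797 (without sham replicate 3) up to 1619 (without IPF replicate 5), against 1196, and the other alternatives gave 908 to 1464. The log2 fold change of Lta turned to -0.222 with a pseudocount of 0.01 and to -0.0877 with voom. In fits without 1 sample it ranged from -0.0365 to 0.630 for Lta, from -0.0311 to 0.0217 for Tnfaip3, from -0.105 to 0.0503 for Tnfrsf23 and from -0.0045 to 0.129 for Tnfsf13, so each changed sign in some of them. The cause was not tested. Of 609 fits of a named gene under an alternative, 533 kept direction and side of the threshold, 57 lost and 5 gained the call, and 14 changed sign. Correlations of same-numbered deviations were weak, at -0.0204 to 0.0953. Of the 5 IPF samples, 3 correlated best with the sham sample of their number, a hint from the data only. These values cannot decide whether the replicate numbers pair the samples. The depth limits genes under about 1 FPKM, such as Tnf, Lta and Tnfrsf17, to low read numbers (Tnf, 6 to 31 per lung).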
